A study of Caenorhabditis elegans with 2 samples.

Results

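The 500 regions described here are strong ChIP-seq peaks that the authors ranked but that overlap none of the peaks in their conservative and optimal thresholded lists. They were chosen by their signal values alone, as the strongest of the 89045 peaks of a pooled ranked list that lay outside both lists. The other 739 peaks of that ranked list overlapped a thresholded peak. Chromatin bound by a GFP-tagged protein was immunoprecipitated with an antibody to GFP and sequenced (ChIP-seq) from whole worms (Caenorhabditis elegans) of strain RW12232, collected as young adults at 65 hours after L1 larvae had been starved following bleaching. The worms carried F39B2.1::TY1::EGFP::3xFLAG, a CRISPR insertion at hinf-1 on chromosome I. The data are of 1 group with 2 biological replicates, and every cell type of the worm contributed to the chromatin. The labels name a possible control experiment, which was not analysed here, so no peak below was set against a control. Chromatin was sonicated, with a stated size range of 200 to 800 bp, and the sequencing depth is unknown from these files.

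The tagged protein, HINF-1, is related to the human zinc finger factor HINFP, which is known for binding histone H4 gene promoters. The irreproducible discovery rate (IDR) compares how peaks rank in 2 peak sets and is low for a peak that ranks high in both. The deposited value is the −log10 of the global IDR, and a value of 2 is a rate of 0.01. Tandem repeats are head-to-tail copies of a short unit, and those with units longer than a few bases are called minisatellites. Near-identical copies matter in ChIP-seq because a short read from such a copy can align equally well at several places. The noncoding genes treated below include tRNA and 5S rRNA genes, which RNA polymerase III transcribes, and the 21U-RNA genes that encode most worm piRNAs.

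The windows printed here reach 50 bases to each side of a summit. They come from the 6 largest groups of related members, where members joined a group by sharing 31-base words, and each shows the strongest member of its group, except that family 2 is shown by a weaker one. They are RefSeq sequence of the plus strand of WBcel235 (ce11), 5′ to 3′, and show the repeats on which the strongest members lie. Capitals mark 1 repeat unit of the period that matched best. The groups are called family 1 to family 6 in order of size.
Family 1, X:110454-110554, unit of 27 bases: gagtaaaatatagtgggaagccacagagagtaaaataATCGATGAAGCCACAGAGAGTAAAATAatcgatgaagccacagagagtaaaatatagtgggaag
Family 2, X:12277967-12278067, unit of 32 bases: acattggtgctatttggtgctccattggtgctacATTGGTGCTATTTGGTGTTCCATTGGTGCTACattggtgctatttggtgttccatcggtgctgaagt
Family 3, X:14909091-14909191, unit of 25 bases: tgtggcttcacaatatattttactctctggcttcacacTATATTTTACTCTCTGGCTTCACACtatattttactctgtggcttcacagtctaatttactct
Family 4, X:15811059-15811159, unit of 26 bases: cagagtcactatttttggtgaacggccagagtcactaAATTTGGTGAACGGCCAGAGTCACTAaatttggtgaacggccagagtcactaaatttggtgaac
Family 5, II:8289462-8289562, unit of 79 bases: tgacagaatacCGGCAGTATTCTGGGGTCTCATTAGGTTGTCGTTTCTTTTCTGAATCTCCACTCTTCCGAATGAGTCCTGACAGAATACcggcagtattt
Family 6, V:7923509-7923609, unit of 40 bases: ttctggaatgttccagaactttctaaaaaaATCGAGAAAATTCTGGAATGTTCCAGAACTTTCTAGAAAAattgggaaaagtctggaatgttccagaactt

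The 3 strongest members whose surroundings held only words found once in the genome are printed for contrast, named by their rank in signal among the 500. In the window of member 105 the capitals mark GGTTCGA, the letters searched as the B box of tRNA genes. The other windows hold none of the motifs searched.
Member 105, X:1643890-1643990: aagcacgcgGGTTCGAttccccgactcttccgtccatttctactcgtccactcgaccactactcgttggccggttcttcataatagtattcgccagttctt
Member 117, IV:7800500-7800600: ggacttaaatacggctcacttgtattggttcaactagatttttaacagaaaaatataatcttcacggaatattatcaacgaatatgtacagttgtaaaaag
Member 122, III:3805526-3805626: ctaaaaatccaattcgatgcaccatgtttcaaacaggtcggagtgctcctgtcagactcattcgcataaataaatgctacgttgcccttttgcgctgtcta

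The members formed a short head of very strong peaks and a long tail of near-equal ones. Their signal ran from 46.7 to 2700.8 with a median of 50, in the authors' units, whose scaling is not stated. In the whole ranked list 1156 peaks were at or above the weakest member, and 656 of them overlapped a thresholded list. An IDR value of 2 or more was held by 127 members (25.4%), against 0.775% of all ranked peaks, and by construction a strong signal and a high IDR value go together. The other 373 members had a value under 2. The first 104 members by signal all had a value of 2 or more. The median signal was 118.5 for the 127 (range 47.6 to 2700.8) and 49 for the 373 (range 46.7 to 67.2), and the ranges overlapped only between 47.6 and 67.2.

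The lower edge of the selection was not a gap. The 3 weakest members, at IV:682979-683208, IV:10373927-10374156 and V:5503663-5503892, had signals of 46.712, 46.708 and 46.704. The 3 strongest peaks left out had 46.702, 46.694 and 46.687. The IDR values of these 6 peaks ran from 0.179 to 1.97, all under 2. Of the 373 members under 2, 263 (70.5%) had a value of 1.3 or more, and 23 had one under 0.5. Of all 696 ranked peaks with a value of 2 or more, 567 overlapped a thresholded list and 129 did not, so the 127 members were all but 2 of the peaks that met this IDR value and were absent from the lists. Of the conservative peaks 0 had a value under 2, and the 127 passed that limit too. Why the 127 were absent from the lists was not tested. Per the file headers the thresholded lists were also derived from further input of unstated content. The part of that input in the contrasts below between the 127 and the thresholded lists was not tested.

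The sequence under the members differed between those above and below an IDR value of 2. The window of 100 bases to each side of a summit was called repeated when under 50% of its 31-base words occurred once in the genome. Of the 127 members 125 (98.4%) lay in repeated windows, against 40 of 373 (10.7%), 65 of 567 conservative peaks (11.5%) and 4.52% of all ranked peaks. The median share of unique words was 0.076 in the 127 and 1.0 in the 373. The median word in the 127 windows occurred 13 times in the genome, and in 39 of them no word was unique. Read from the other side, 192 ranked peaks had an IDR value of 2 or more and a repeated window. Of these 127 were outside the lists and 65 inside, while of 504 with windows that were not repeated 2 were outside. Repeated sequence was thus also present inside the thresholded lists. Whether the placing of reads among near-identical copies bears on these signals was not tested.

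**Figure D1:**
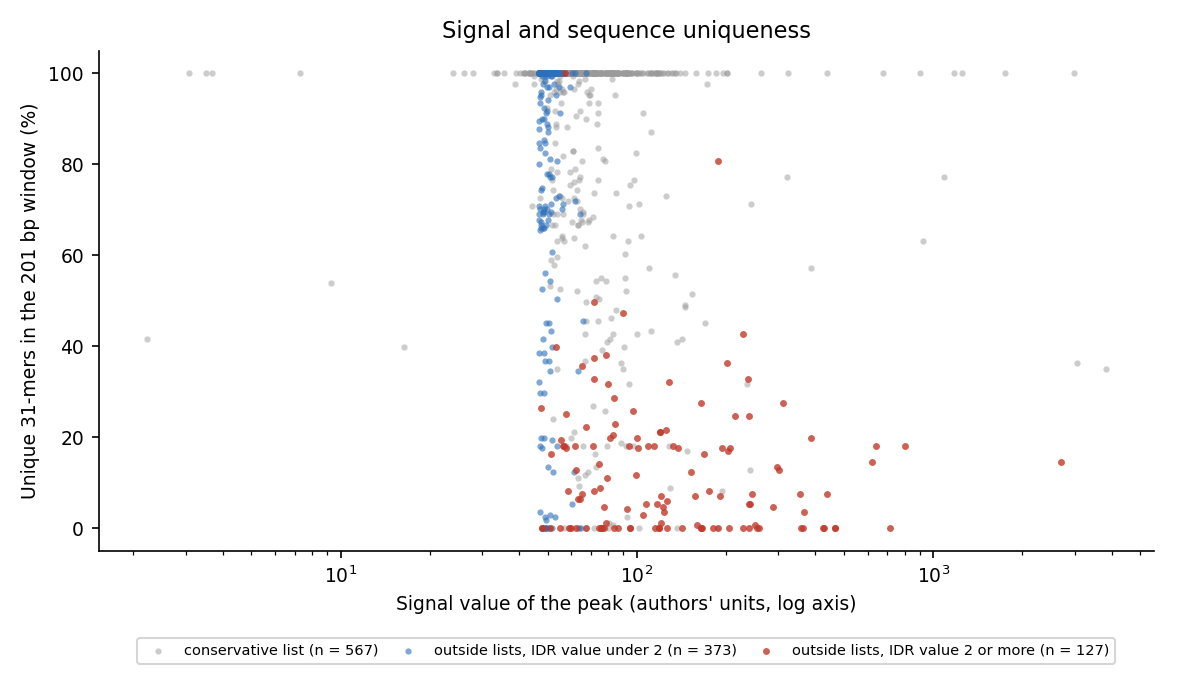
Signal of each peak (log axis, authors' units) against the percentage of the 31-base words in its window that occur once in the genome; red points are the 127 members with an IDR value of 2 or more, blue points the 373 under 2 and grey points the 567 conservative peaks. The red points lie at the bottom, 125 of them under 50%, and reach a signal of 2700.8, while most blue points lie at or near 100% between 46.7 and 67.2.

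The 2 members above an IDR value of 2 that did not lie in repeated windows were both on chromosome IV. The stronger, at IV:13549376-13549605 with a pooled signal of 188, lay 114 bp downstream of the protein-coding gene Y45F10B.13, and 0.807 of its words were unique. Its signal was 156 in the replicate 1 list and 95.1 in the replicate 2 list. The nearest other member with an IDR value of 2 or more was 187635 bp away. The weaker, at IV:2825557-2825786 with a pooled signal of 57.1, had only unique words and lay 3301 bp from such a member, in a cluster of 3.

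Most of the repeated windows were tandem repeats. For each window the period from 2 to 100 bp was found at which most bases equalled the base 1 period further on, and a window was called tandem when at least 70% did. This measure was chosen after the values were seen. By it 102 of the 127 members (80.3%) were tandem, against 24 of 373 (6.43%), 37 of 567 conservative peaks (6.53%) and 1.36% of all ranked peaks. Another 23 of the 127 were repeated without being tandem. The run of repeated sequence around a member, bridging gaps of up to 50 bp, had a median length of 3194 bp for the 125 repeated members above an IDR value of 2, and ranged from 220 to 13369 bp. For the 40 repeated members below it the median was 2384 bp, and the range, from 312 to 32990 bp, reached further. Of the 141 tandem windows among all ranked peaks with a value of 2 or more, 104 were outside the lists and 37 inside.

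**Figure D2:**
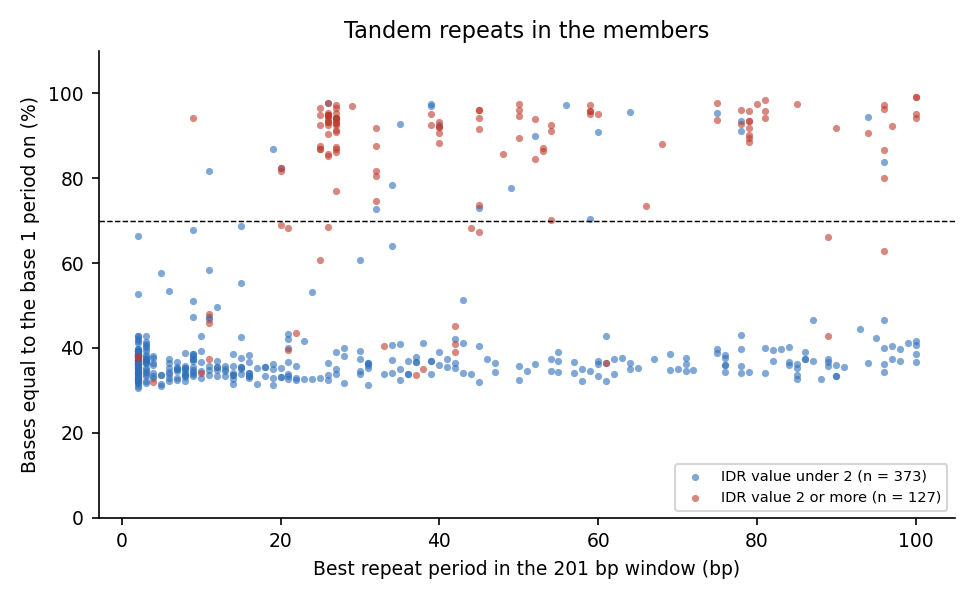
Best repeat period of each member's window (in bp) against the percentage of bases equal to the base 1 period further on; red points are members with an IDR value of 2 or more (n = 127), blue points those under 2 (n = 373) and the dashed line is at 70%. Most red points lie above the line, with a dense column at periods of 25 to 27 bp, and most blue points lie between 30% and 50% at every period.

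The strongest member was the family 4 window printed above, X:15810958-15811184, with a pooled signal of 2701. It ranked 2 in replicate 1 (signal 1348) and 4 in replicate 2 (signal 1477). It lay between genes, 858 bp upstream of the pseudogene WBGene00044155, and its median word occurred 31 times in the genome. The third strongest member, X:15808118-15808262, lay in the same cluster and family, at 712, with 339 in replicate 1 and 421 in replicate 2. The second strongest, V:5284095-5284263, at 802, was also of family 4, lay 2174 bp downstream of Y49G5A.1 and had signals of 368 and 472. All 3 ranked among the first 12 peaks of both replicates.

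Family 4 had 8 members, 5 on chromosome V, 2 on X and 1 on I, and all 8 had an IDR value of 2 or more. Its signals ran from 51.2 to 2700.8 with a median of 287.3. The best period was 26 bp in 5 members and a multiple of it, 52 or 78 bp, in the others. In the genome its words filled 5 stretches on 4 chromosomes, of which 3 held a member, 4 held any ranked peak and 0 held a conservative peak.

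Family 1 had the most members, 24 on 6 chromosomes. There were 6 on III, 5 on IV, 4 on X and 3 each on I, II and V, and 23 of the 24 had an IDR value of 2 or more. The best period was 27 bp in 17 members and 54 or 81 bp in 6. Its strongest member, X:110451-110532, had a pooled signal of 466, with 228.5 in replicate 1 and 243 in replicate 2, and lay 1475 bp upstream of elk-2. Its words filled 17 stretches of a median 1760 bp, of which 12 held a member and 1 a conservative peak. Of the 43 ranked peaks whose windows were mostly family 1 sequence, 0 were conservative peaks.

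Family 3 had 11 members, 9 on X and 2 on IV, and 10 of them had an IDR value of 2 or more. Its strongest, X:14909026-14909255, had a pooled signal of 229, with 97.1 in replicate 1 and 122 in replicate 2. Its words filled 18 stretches on 6 chromosomes, of which 7 held a member and 2 a conservative peak. Its printed window reads on the opposite strand much like that of family 1. When words of 15 bases were used in place of 31, families 1 and 3 fell, with a smaller family, into a group of 39 members, 37 of them with an IDR value of 2 or more. The 10-base word AGAGAGTAAA, counted on both strands, occurred in 37 of the 127 members (29.1%), against 2 of the 373 (0.536%), 6 conservative peaks (1.06%) and 0.166% of all ranked peaks. Words and the 15-base grouping were chosen after the values were seen, and no test was made of them. Of the 149 ranked windows with this word, 95 were repeated.

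Family 2 had 11 members, 9 on chromosome I and 2 on X, with best periods of 32 bp in 6 members and 21 to 85 bp in the rest. Its signals ran from 47.7 to 426.0. The member printed above, X:12277967-12278067, was its strongest off chromosome I, at 57.6. The 7 members of family 5 lay in 1 cluster on chromosome II, while its words filled 3 stretches on 2 chromosomes, of which 1 held a member, 2 held any ranked peak and 0 held a conservative peak. All 7 members had a period of 79 bp and an IDR value of 2 or more, with signals of 65.1 to 354.3. Its strongest, II:8289462-8289567, had signals of 157 in replicate 1 and 195 in replicate 2.

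Family 6 was unlike the others in its letters and its place in the lists. Its 6 members lay on V within 1 cluster, all with an IDR value of 2 or more and signals of 74.6 to 180.2. The printed unit holds TTCNNGAA, the inverted pair of 5-base units at the core of the heat shock element that HSF-1 binds in heat shock gene promoters. The letters were recognised after the sequence was seen. Such units 3 in a row were present in 6 of 6 family 6 windows, with 9 to 17 matches each. They were present in 7 of the 127 members (5.51%), which include these 6. The share was 31 of 567 conservative peaks (5.47%) and 1.37% of all ranked peaks. Since the 6 windows were grouped by shared words, their common letters follow largely from the grouping. Here conservative peaks shared the sequence. Of 35 stretches of family 6 words in the genome 13 held a conservative peak and 2 held a member, and 6 conservative peaks had windows mostly of this family, the strongest at 240.1. For families 1, 2, 4 and 5 that number was 0 and for family 3 it was 2.

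Altogether 39 families held 153 members, 111 of them with an IDR value of 2 or more. Beyond the 6 families, the fourth strongest member, X:293358-293477, had a pooled signal of 643, with 300.3 in replicate 1 and 356 in replicate 2. It lay in repeated sequence that was not tandem, 3791 bp upstream of R57.2. The fifth, X:11785773-11785888, had a pooled signal of 624, with 252 in replicate 1 and 388 in replicate 2, and its words occurred a median of 132 times. The sixth, III:1299922-1300032, had a pooled signal of 467, with 230.0 and 247, and lay 480 bp downstream of fbxa-28, an F-box gene. None of its words was unique. The 25 strongest members had IDR values of 4.26 to 5.0, and the summits of all 25 lay outside annotated genes.

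Some members lay close to others along the chromosomes. With summits chained at gaps of 10000 bp or less, 65 clusters held 174 members (34.8%), and 43 of these were pairs. Of members with an IDR value of 2 or more 106 (83.5%) were in a cluster, against 68 (18.2%) of the others. The 68 include members chained to a member above that value. The same share was not counted for conservative or all ranked peaks, so these shares stand without a reference. The spans of the 42 clusters with such a member added up to 140957 bp and held 206 ranked summits, 106 of them with an IDR value of 2 or more, and 0 peaks of the thresholded lists. The median distance from one of the 127 members to the nearest thresholded summit was 83255 bp and the smallest 3523 bp. The median distance to the nearest other such member was 1074 bp, so neighbouring peaks often read the same array and are not independent sites.

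The 5 largest clusters were mostly of 1 family each. The largest, I:10946054-10951897, held the 9 members of family 2 on that chromosome over 5844 bp, 8 of them with an IDR value of 2 or more, near the tRNA gene Y95D11A.4. Its strongest member, I:10947449-10947678, had a pooled signal of 426, with 222 in replicate 1 and 185 in replicate 2. The cluster II:8287645-8292638 held the 7 members of family 5, between cct-4, a chaperonin subunit gene, and nlp-55, a neuropeptide-like protein gene. The cluster V:5283696-5287678 held 6 members, 5 of them with an IDR value of 2 or more, up to 802.0. The cluster V:7913411-7924476 held 6 members, all of family 6, up to 180.2. The cluster III:7444843-7448127 held 5 members, its strongest at 244.9 and 6061 bp upstream of alh-12.

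Some clusters held no member above the IDR value. Of the 65 clusters 23 were of this kind, and the one with 4 members, I:10566756-10571565, had only unique words in every window. Its summits lay in coding exons of pas-5, a proteasome subunit gene, of rla-0, a ribosomal stalk protein gene, and of F25H2.12, which held 2 of them. Their signals were 47.2, 48.5, 49.6 and 51.2. The cluster was singled out after its values were seen.

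The members on chromosome X made up 18.9% of the 127 and 13.7% of the 373, against 17.8% of all ranked and 9.52% of conservative peaks. Chromosome V held 26% of the 127, against 20.7% of all ranked peaks. The first and last 25% of each chromosome held 37.8% of the 127 summits and 40.2% of the 373, against 49.3% of all ranked peaks. For all ranked peaks in repeated windows that share was 64.6%, which is the higher of these values. No test was made of these shares, and members of 1 array count several times in them.

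**Figure D3:**
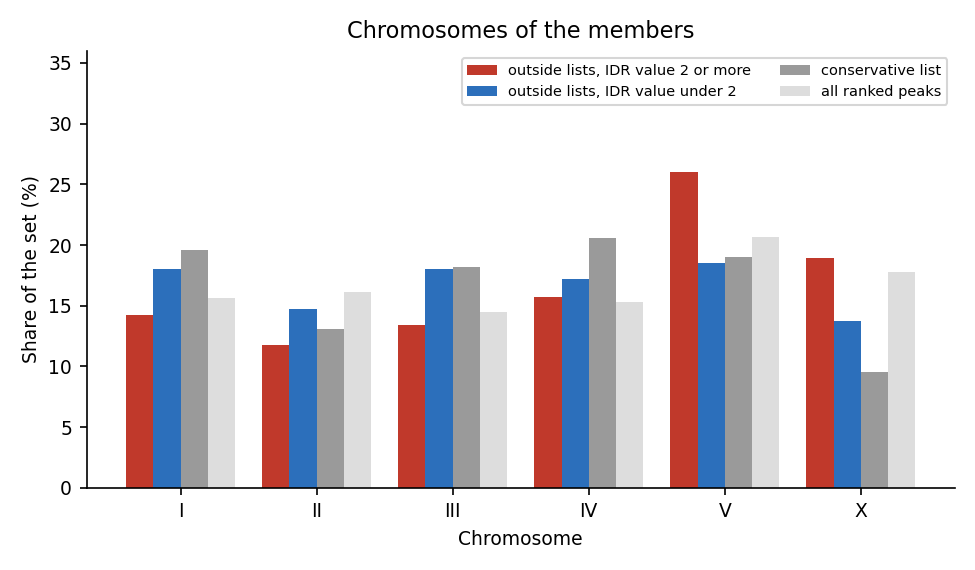
Share of each set (%) on each of the 6 chromosomes, for members with an IDR value of 2 or more (red), members under 2 (blue), the conservative list (grey) and all ranked peaks (light grey). Red bars are highest on V (26%) and X (18.9%), and the conservative list has its lowest bar on X (9.52%).

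Nearly all members were found again in the replicates taken alone. A peak of the replicate 1 ranked list overlapped 478 members (95.6%) and one of the replicate 2 list 491 (98.2%). Both lists overlapped 469 members (93.8%), against 25.6% of all ranked peaks and 98.1% of conservative peaks. No member was absent from both lists. The pooled signal that chose the members includes both replicates, so this presence is a description. Of the 31 members found in 1 list, 9 were in the replicate 1 list and 22 in the replicate 2 list.

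The ranks in the 2 replicates differed between the IDR classes, as the IDR value itself measures. The 124 members above 2 that were in both lists had median ranks of 123 and 126, and the larger rank was a median 1.44 times the smaller. Spearman's rho between the ranks was 0.84 over these sites, which share libraries and in part sequence. The 345 members under 2 in both lists had median ranks of 2469 and 1760, with a median ratio of 5.21, and 68 of them ranked beyond 10000 in 1 replicate. Because their pooled signals are nearly equal, a high rank in one replicate goes with a low rank in the other by selection.

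**Figure D4:**
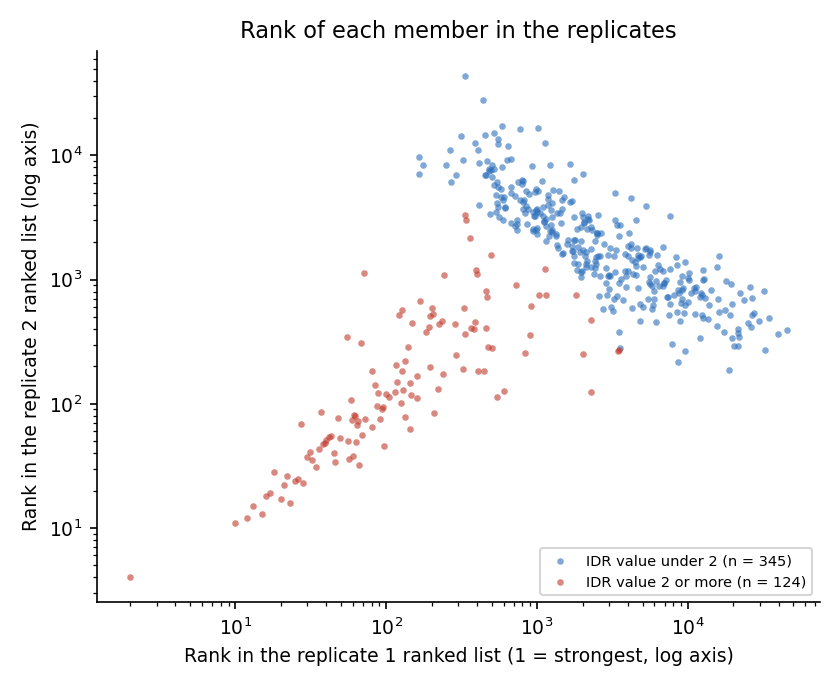
Rank of each member in the replicate 1 list against its rank in the replicate 2 list (both log axes, 1 is the strongest), for the 124 members with an IDR value of 2 or more (red) and the 345 under 2 (blue) found in both lists. Red points run along the diagonal from ranks 2 and 4 downward in strength, and blue points form a band from upper left to lower right, as selection on a nearly constant pooled signal gives.

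The 3 strongest members with wholly unique windows, printed above, all had an IDR value under 2. Member 105, X:1643825-1644054, had a pooled signal of 67.2, with 44.5 in replicate 1 (rank 165) and 19.3 in replicate 2 (rank 9764). It lay 18 bp downstream of the pseudogene WBGene00023401. Member 117, IV:7800435-7800664, had a pooled signal of 61.8, with 15.3 in replicate 1 and 45.3 in replicate 2, and an IDR value of 0.155. Member 122, III:3805461-3805690, lay in an intron of toh-1, a gene of the astacin protease family, and had signals of 12.3 in replicate 1 and 44.4 in replicate 2. Member 105 had the higher value in the replicate 1 list, and the other 2 had it in the replicate 2 list. Since the scaling is not stated, values of the 2 lists may not be on a common scale.

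The 10 strongest members under the IDR value also held repeats and tRNA genes. Member 106, II:3796448-3796677, lay in a coding exon of Y8A9A.2 with a repeat period of 96 bp, and its signals were 44.6 in replicate 1 and 20.7 in replicate 2. Members 109, 112, 114, 120 and 121 lay in tandem repeats too. Of these, members 109 (I:4541925-4542154), 120 (III:7444843-7445072) and 121 (V:14767140-14767369) were in the replicate 2 list and not in the replicate 1 list. Members 111 and 119 had summits inside tRNA genes and IDR values of 1.99 and 1.95, just under the limit. Their higher value was in the replicate 2 list.

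The gene surroundings of the 2 classes differed as well. The summit lay between genes in 116 of the 127 members (91.3%) and in 139 of the 373 (37.3%), against 45.9% of conservative and 28.1% of all ranked peaks. The median distance to the nearest gene was 1529 bp for the 127 and 0 bp for the 373. Over 1000 bp from any gene lay 86 of the 127 (67.7%), 30 of the 373 (8.04%) and 8.8% of all ranked peaks. A protein-coding gene was within 500 bp of 15 of the 127 (11.8%) and of 285 of the 373 (76.4%), against 79.0% of all ranked peaks. The 5′ end of such a gene was within 500 bp of 1 of the 127 and of 100 of the 373 (26.8%), against 39.9% of conservative and 19.8% of all ranked peaks.

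**Figure D5:**
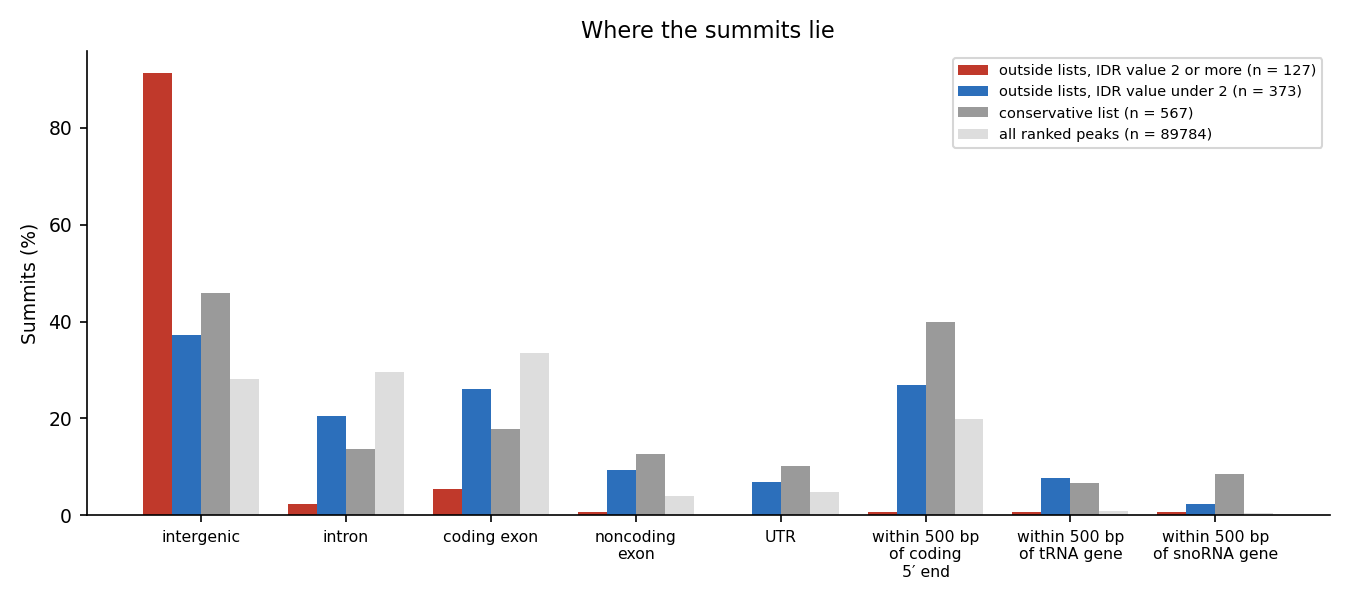
Percentage of summits in each kind of place, or within 500 bp of a gene's coding 5′ end, a tRNA gene or a snoRNA gene, for members with an IDR value of 2 or more (red), members under 2 (blue), the conservative list (grey) and all ranked peaks (light grey). The red bar reaches 91.3% between genes and stays under 6% in every other place, while the blue bars lie between those of the 2 comparison lists at coding 5′ ends (26.8%).

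Of the noncoding classes, rRNA genes lay within 500 bp of 3 members (0.6%, against 0.01% of all ranked peaks), and all 3 were 5S rRNA genes on V. The member V:17122070-17122299 had a pooled signal of 165, with 76.9 in replicate 1 and 94 in replicate 2, and lay 123 bp from a gene copy named rrn-4.2. The member V:17129372-17129601 had its summit inside another copy with that name, at 67.2, with 37.3 in replicate 1 and 30.0 in replicate 2. Both had an IDR value of 2 or more and repeated windows, and both lay within 500 bp of a gene named sls-1.10, a spliced leader RNA gene. The third, V:17428677-17428906, near rrn-4.15, had only unique words, an IDR value of 0.41 and signals of 11.0 in replicate 1 and 36.4 in replicate 2. The annotation holds 20 rRNA genes, and 0 conservative peaks lay near any. Copies of the 5S and SL1 array are near-identical, so a signal cannot be placed at 1 copy with certainty.

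The class annotated only as ncRNA lay near 59 members, 4 of the 127 (3.15%) and 55 of the 373 (14.7%), against 16.9% of conservative and 7.6% of all ranked peaks. tRNA genes came next, and their members were mostly under an IDR value of 2. A tRNA gene lay within 500 bp of 30 members, 1 of the 127 and 29 of the 373 (7.77%), against 6.7% of conservative and 0.81% of all ranked peaks. Over the conservative peaks in the signal range of the 373 it was 29 of 278 (10.4%). The summit was inside a tRNA gene in 13 of the 373. The 29 members had signals of 46.7 to 64.5 and IDR values of 0.507 to 1.99, with 21 at 1.3 or more. Their median ranks were 2469 in replicate 1 and 1549 in replicate 2, against 881 and 691.5 for the 38 conservative peaks near tRNA genes. The strongest of the 29, X:5085554-5085783, inside the tRNA gene WBGene00022958, had a pooled signal of 64.5, with 19 in replicate 1 and 44.7 in replicate 2. Its neighbour in signal, II:9566187-9566416, inside WBGene00014365, had 61.6, with 19.1 in replicate 1 and 40.7 in replicate 2. The member V:2664638-2664867, 15 bp from WBGene00023157, had 56.0, with 20.2 and 32.8 in that order. All 3 had the higher value in the replicate 2 list, while some others of the 29 had it in the replicate 1 list. The single tRNA-near member above the IDR value, I:10946054-10946283, lay 276 bp from Y95D11A.4 in the family 2 array and had 41.2 in replicate 1 and 36.7 in replicate 2.

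Of the 30 tRNA-near members 14 (46.7%) were on X, which also holds 276 of the 612 tRNA genes (45.1%). The windows of the 29 had a median unique share of 0.702, from 0.608 to 1.0. tRNA genes of 1 type are near-identical, while most words in each of these windows occurred once in the genome. Whether the placing of reads among copies bears on these signals was not tested. The conservative peaks near tRNA genes had a median unique share of 0.711. GGTTCGA on either strand was present in 19 of the 373 windows (5.09%) and 1 of the 127, against 7.94% of conservative and 1.92% of all ranked windows of the same length.

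piRNA genes lay within 500 bp of 4 members (0.8%), against 2.46% of all ranked peaks and 2.65% of conservative peaks. When the 500 were drawn from the list of a single replicate, the share was 1.2% without replicate 1 and 1.6% without replicate 2. All 4 were on chromosome IV, which holds 14714 of the 15363 annotated piRNA genes. The member IV:13361741-13361970, 312 bp from 21ur-8623, had a pooled signal of 79.0, with 37.8 in replicate 1 and 54.3 in replicate 2, an IDR value of 3.27 and a repeated window. The others, near 21ur-8714, 21ur-5229 and 21ur-7377, had signals of 52.5, 48.8 and 47.2 and values under 2, and the one near 21ur-5229 was also inside a tRNA gene. CTGTTTCA, searched as the piRNA upstream motif, was present in 5 of the 500 windows (1.0%), against 1.29% of all ranked windows.

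snoRNA genes, whose products guide modification of rRNA, lay near 10 members (2.0%), against 8.47% of conservative and 0.558% of all ranked peaks. The strongest, IV:14780297-14780526, lay 427 bp from Y57G11C.1145 in a repeated window, with 81.5 in replicate 1 and 155 in replicate 2. The next were near T08B6.64 (53.8), ZK20.9 (53.4) and ZK643.9 (49.5), all under an IDR value of 2 and within 50 bp of the gene. The one near T08B6.64 was in the replicate 1 list alone. Genes annotated as snRNA lay near 6 members (1.2%), against 3.0% of conservative and 0.172% of all ranked peaks. Among them were sls-2.14 and sls-2.15, spliced leader genes on III with the summit inside the gene and signals of 54.4 and 50.6. The only miRNA gene was cel-mir-4932, at 51.2, with 17.1 in replicate 1 and 32.1 in replicate 2. That is 0.2% of members, against 0.705% of conservative and 0.298% of all ranked peaks. Pseudogenes lay near 22 members (4.4%), against 4.59% of all ranked peaks, and the strongest of these were the repeat peaks near WBGene00022023 (250.2) and WBGene00012384 (238.6).

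Histone genes, the known targets of HINFP, had no member nearby by the count made here. Of 80 annotated histone genes, 0 had a member within 500 bp, while 20 conservative peaks lay near them. Of 78 cytosolic ribosomal protein genes named rpl or rps, the same count gave 1 with such a member, rpl-21, a large-subunit protein gene. That peak, III:8130437-8130666, lay 325 bp from the gene with a signal of 52.7, an IDR value of 0.16 and only unique words, and 16 conservative peaks lay near genes of this list. The count was incomplete, since member 132, IV:7312780-7313009, lay 63 bp downstream of rps-8. It had a signal of 56.2, an IDR value of 1.92 and only unique words. The histone count was given with it and may likewise miss members beside a gene. Since peaks overlapping the lists were removed by the rule, these counts describe what was left.

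Short motifs on either strand of the windows gave low counts in the 127 members, nearly all of which lay in repeated windows. CGTCCG, the core of the human HINFP site, was present in 1 of the 127 (0.787%) and 17 of the 373 (4.56%), against 4.06% of conservative and 2.86% of all ranked windows. GGGACACA was present in 0 of the 127 and 3 of the 373 (0.804%), against 3.53% of conservative and 0.33% of all ranked windows. GAGAGA was present in 8 of the 127 (6.3%) and 68 of the 373 (18.2%), against 20.1% and 12.1%. A run of 8 T was present in 5 of the 127 (3.94%) and 35 of the 373 (9.38%), against 8.11% and 15.9%. The telomeric repeat TTAGGC, present as 2 tandem copies, was found in 0 of the 127 and 1 of the 373, against 0.542% of all ranked windows. Among all ranked peaks in repeated windows, CGTCCG was present in 2.37%, GGGACACA in 0.246% and GAGAGA in 7.27%. The run of 8 T was present in 10.8% of them and the telomeric repeat in 0.591%. For GAGAGA the share of the 127 was thus near that of repeated windows in general. Members of the 127 share repeat units, so a motif in a unit is counted once for each member that holds it. The median GC content was 40.3% in the 127 and 44.3% in the 373, against 42.8% in conservative and 38.8% in all ranked windows.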

How the data were processed

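Peak lists were the starting point, and no reads were processed. The authors deposited 8 lists on build ce11, 4 of them ranked. Per the file headers each was derived from filtered alignments of 1 or both replicates and another input of unstated content, and the thresholded lists from further input. The peak caller is not given in the sources used here. The deposited signal is the peak caller's own value, whose scaling is not stated, and served to rank peaks within a list. The deposited ranked lists give the −log10 of the global IDR. Summit offsets came from the deposited lists. The 32 columns of values for peak sets without sample names were not used.

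Peaks sharing 1 bp overlapped. Genes came from Ensembl release 115 (46890 on 6 chromosomes) and sequence from RefSeq's WBcel235, with 1-based coordinates. Words of 31 bases were counted genome-wide on both strands, and stretches of family words needed 100 words with gaps up to 1000 bp. Gene and motif distances were taken at the summit. Named were the 25 strongest members, the 10 strongest under an IDR value of 2, up to 4 by signal of each noncoding class, histone and ribosomal protein genes, the 5 largest clusters, 3 peaks on each side of the signal limit and the 6 largest families. The members, lists and motifs were chosen with earlier results of these data known. No test was made, since the members were selected on signal, and peaks are not biological replicates. Intervals of shares are Wilson intervals at 95% confidence. The median GC also had an interval, 42.3% to 43.8%, which is not of that kind because a median is not a share. All intervals cover the number of peaks only. The alternatives changed the number of members, the lists left out, the replicate, word length, distances and gaps. The counting steps were tested on simulated data. Python 3.11.15, numpy 2.4.6, pandas 2.3.3, scipy 1.17.1 and matplotlib 3.10.9 were used.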

Additional observations from a re-analysis of the deposited data

How the results depend on the processing

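Of 114 alternative values 92 stayed inside the 95% interval of the reported value and 22 did not. The 92 include those from merging overlapping members, which could change nothing because 0 members overlapped. With the 250 strongest members the share with an IDR value of 2 or more was 49.6%, in repeated sequence 56.4%, in clusters 47.6%, near coding 5′ ends 13.6%, on X 19.2%, with the telomeric repeat 0.0%, and the median GC 41.5%. With the 1000 strongest the share with that IDR value was 12.9%, in repeated sequence 21.4% and near coding 5′ ends 24.3%. An IDR limit of 1.3 gave 78.0%. Repeated sequence gave 26.4% with 50-base words and 9.8% when no word might be unique. Cluster gaps of 2000 and 50000 bp gave 23.6% and 50%. Coding 5′ ends gave 12.2% within 250 bp, 32.2% within 1000 bp and 24.6% outside the conservative list alone. Leaving out replicate 1 or replicate 2 used the ranked list of the other, and both gave an IDR share of 20.8%. The IDR value of such a list comes from alignments of 1 replicate. It does not compare the replicates, so the 20.8% is not the same measure as the 25.4% of the pooled list. Those selections overlapped 234 (46.8%) and 200 (40.0%) of the 500 members, and the telomeric share was 0.0% to 0.2% and the median GC 41.8% to 42.3%. No paired analysis was possible because the design holds a single group. Depth is unknown, so counting error of reads is not covered.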
